A study of Arabidopsis thaliana with 64 samples.

Results

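The uninduced GR-LBD16 lines are Arabidopsis seedlings that carry LBD16 fused to the glucocorticoid receptor (GR) and that never received dexamethasone (Dex). Their 8 mock libraries, out of 64 libraries in the series, were set against the 24 mock libraries of the GR-CHA19, GR-ENAP1 and GR-WRI3 lines. Members were taken by label alone, as every library titled mock, and no measured value entered the choice. The study asked whether factors that bind promoters of central carbon metabolism change its transcripts, and expressed each of 4 factors as a GR fusion. All lines are Col-0 plants with a fusion driven by the 35S promoter, made with the same vector, which also carries an oleosin-RFP seed marker under the OLE1 promoter. Each construct had 4 independent insertion lines (GR-LBD16 lines 3, 8, 11 and 12), bulked to T3, with 2 plates of pooled whole seedlings per line and treatment. Seedlings grew for 5 days in the dark on half-strength MS and spent 24 h on fresh mock plates, against 10 μM Dex plates for the induced set, before collection in the dark.

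No line without a GR fusion was analysed here, so the reference is 3 other overexpressed factors rather than wild type. Each construct also has its own count table and the labels name no batch. Construct and any batch of growth, library preparation or sequencing are therefore the same grouping, and the effect of LBD16 and that of a batch cannot be told apart anywhere below.

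LBD16 is a plant-specific transcription factor of the LATERAL ORGAN BOUNDARIES-domain family. In roots it acts downstream of the auxin response factors ARF7 and ARF19 in the first divisions of a lateral root, and with relatives such as LBD18 and LBD29 in callus formation. A GR fusion is designed to wait in the cytoplasm until Dex releases it into the nucleus, so the mock libraries hold the overexpressed transcript without that release. Seedlings kept in the dark live on seed reserves. They first break down storage proteins and oil that were laid down under ABI3, ABI5 and related regulators of seed maturation, together with late embryogenesis abundant (LEA) proteins that protect the dry seed, and later turn on carbon starvation genes.

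Total counts ran from 2964241 to 6227202 in the 8 GR-LBD16 mock libraries, with a median of 5269989, and from 2570143 to 7571782 in the 24 others, with a median of 5380424. Levels are given as CPM, in which each count is scaled by the total of gene counts in its library, with no correction for gene length. A pair of mock libraries stood apart from all others (the outlying libraries), GR-LBD16 line 3 replicate 1 and GR-ENAP1 line 1 replicate 1. Their median correlations with the other mock libraries were 0.633 and 0.779 on log2 CPM, against at least 0.882 for every other library. The chi-square per gene between the plates of a line was 171 in GR-LBD16 line 3 and 105 in GR-ENAP1 line 1, and between 2.2 and 12 in the other 14 lines. For the genes and groups that moved most when both were left out, the values without them are also given. As the RNA came from whole seedlings, a change in the share of a cell type and a change in RNA per cell cannot be told apart.

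LBD16 itself (AT2G42430, chr2:17663353-17665337, position from the RefSeq annotation of TAIR10.1) was far higher in its own lines without any Dex. In mock it measured 56.4 and 59.1 CPM on the plates of line 3, 191 and 191 CPM in line 8, 353 and 421 CPM in line 11, and 87.7 and 87.4 CPM in line 12. The 24 other mock libraries lay between 8.38 and 17.5 CPM, with a median of 13.8. None of the 8 libraries overlapped the other 24, and the lowest GR-LBD16 line stood 3.57-fold above the highest line of another construct. Line means were 57.8 ± 1.96, 191 ± 0.307, 387 ± 47.9 and 87.5 ± 0.225 CPM for lines 3, 8, 11 and 12 (SD, n = 2 plates). All neighbours in the order 3, 12, 8, 11 were further apart than their plates, and the highest line was 6.70-fold above the lowest. Over lines the mean was 181 ± 149 CPM (SD, n = 4), against 13.6 ± 1.90 CPM (SD, n = 12) for the others. The fitted log2 fold change was 3.63 ± 0.31 (SE, adjusted p = 3.94e-05, edgeR quasi-likelihood test with Benjamini-Hochberg adjustment). Reads of the transgene and of the native gene fall on the same model, so these values are their sum.

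**Figure D1:**
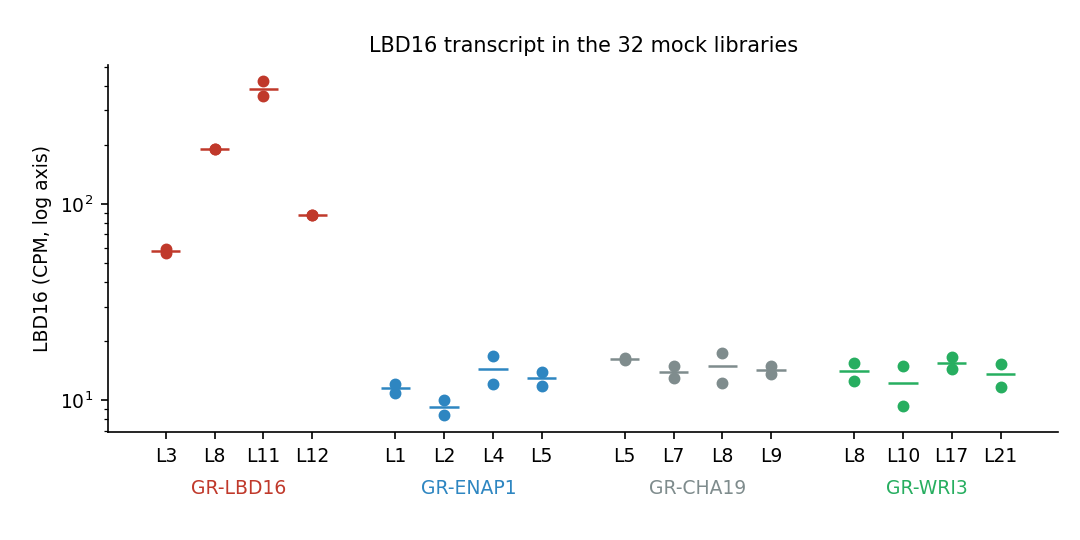
LBD16 transcript in CPM (log axis) for each mock plate, by line and construct. The 8 GR-LBD16 plates lie between 56.4 and 421 CPM and the 24 other plates between 8.38 and 17.5 CPM, with plates of a line close together and lines well apart.

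Dex left the order of the lines as it was. On Dex plates LBD16 measured 63.3 and 57.2 CPM in line 3, 183 and 157 CPM in line 8, 408 and 485 CPM in line 11, and 90.9 and 67.6 CPM in line 12, with 8.40 to 18.5 CPM in the 24 Dex libraries of other constructs. The same contrast in Dex gave a log2 fold change of 3.73 ± 0.34 (SE, adjusted p = 0.000237, edgeR). For the other fused factors only the highest mock level in their own lines is given, and each was above all GR-LBD16 mock libraries. CHA19 reached 215 CPM in mock against 52.1 to 79.7 CPM in the GR-LBD16 libraries. ENAP1 reached 537 CPM against 25.4 to 91.0 CPM, and WRI3 206 CPM against 0.321 to 2.36 CPM.

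Against the mean of the other constructs, 7321 of 19303 genes passed an adjusted p of 0.05 (37.9%, edgeR quasi-likelihood test over 16 line sums), 3998 of them higher (20.7%) and 3323 lower (17.2%). The median log2 fold change of all genes was 0.03. The count differed between the reference constructs. GR-LBD16 differed from GR-CHA19 in 8996 genes (46.6%) and from GR-WRI3 in 7954 genes (41.2%), but from GR-ENAP1 in 35 (0.181%), 34 of them higher (0.176%) and 1 lower (0.00518%), the lower one being ENAP1 itself. At an unadjusted p under 0.05 the count against GR-ENAP1 was 753, and DESeq2 called 90. Set against its own rest in the same fit, GR-CHA19 had 3409 calls (17.7%), GR-ENAP1 314 (1.63%) and GR-WRI3 23 (0.119%). Leaving the GR-CHA19 lines out of the reference brought the GR-LBD16 count to 102, leaving out GR-WRI3 brought it to 249, and leaving out GR-ENAP1 raised it to 11137. Without GR-ENAP1 line 1 replicate 2 the count was 2454, without GR-LBD16 line 3 replicate 1 it was 3441, and without both libraries that stood apart it was 9234 (4905 higher and 4329 lower of 19105 tested). The count against GR-ENAP1 rested on single libraries. It was 3414 without GR-ENAP1 line 1 replicate 1 alone (10694 against the mean), 1 without GR-ENAP1 line 1 replicate 2, and 5 without both libraries that stood apart. In the fit without both, 4586 genes had an unadjusted p under 0.05 against GR-ENAP1 (edgeR). Where genes are said below not to be called against GR-ENAP1, all libraries were in the fit. List counts given below without both libraries have their own background, the 4905 higher and 4329 lower of 19105 genes in that fit.

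A principal component analysis of log2 CPM over the 32 mock libraries showed the same arrangement. The first component held 59.5% of the variance and the second 12.4%. On the first, GR-CHA19 ran from -48.4 to -32.2 and GR-WRI3 from -47.7 to -7.28, GR-ENAP1 from -26.9 to 28.0 with 1 further library at 145, and GR-LBD16 from 4.44 to 84.4 with 1 further library at 198. All 8 GR-LBD16 libraries were above all 16 libraries of GR-CHA19 and GR-WRI3, while GR-ENAP1 overlapped both GR-WRI3 and GR-LBD16.

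**Figure D2:**
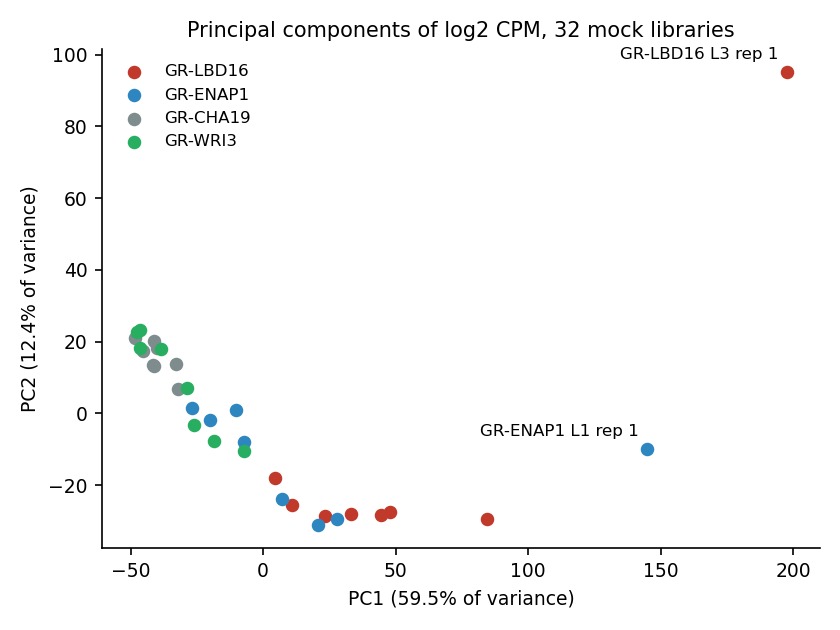
First and second principal components of log2 CPM in the 32 mock libraries, coloured by construct. GR-CHA19 and GR-WRI3 lie on the negative side of the first component, GR-LBD16 on the positive side and GR-ENAP1 between, and 1 library of GR-LBD16 (198) and 1 of GR-ENAP1 (145) stand far out.

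A stricter view kept the genes called in the same direction against the mean and against each of the other constructs. There were 33, all higher (0.171% of genes tested), and none lower at an adjusted p of 0.05 (edgeR), where DESeq2 called 1 lower and 82 higher. Without GR-ENAP1 line 1 replicate 1 alone there were 1792 higher, all 33 among them, and 1402 lower. Leaving out some other single libraries shrank the set. It held 1 gene without GR-ENAP1 line 1 replicate 2, line 2 replicate 2 or line 4 replicate 1. It held 2 without GR-ENAP1 line 4 replicate 2, and 9 without GR-CHA19 line 8 replicate 2. Of the 33 found with all libraries in the fit, 32 were genes other than LBD16. By product description 12 of these were LEA proteins or dehydrins, as were 67 of the 19303 genes tested. A further 3 were cupins, the superfamily of the seed storage globulins, and 4 were uncharacterized. The rest included the peroxiredoxin PER1, the peroxygenase ATPXG2, the poly(ADP-ribose) polymerase family member AT5G22470 and the HVA22 family protein HVA22B. Their log2 fold changes ran from 1.56 to 5.70 with a median of 3.94. Of the 33, 32 had all 4 GR-LBD16 lines above all 12 other lines, where 155 of all genes tested did so (0.803%), and the exception was RAB18. Since the list was chosen on this contrast, these figures describe it and test nothing. Adjusted p-values of the 32 against GR-ENAP1 ran from 0.0310 to 0.0488, just inside the threshold, and the group 1 LEA gene EM1 at 0.0583 and the oleosin gene OLEO2 at 0.0591 were just outside it.

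The ABA-response element (ABRE), with the core ACGTG bound by bZIP factors such as ABI5, and the RY element, with the core CATGCA bound by B3 factors such as ABI3, are the promoter letters best known from seed maturation genes. Both were searched on both strands in the 250 bases before each gene start, together with GCGGCG, a motif bound by LOB-domain proteins in vitro. ACGTG was in 28 of the 32 windows (87.5%), against 22.9% of 27432 protein-coding nuclear genes and 23.7% of the 18804 of these that were tested. CATGCA was in 12 (37.5%), against 8.44% and 7.57%. GCGGCG was in 1 (3.12%, GEA6), against 1.56% and 1.62%. These shares describe the letters and show no bound factor. Of the following windows, PER1 and LEA4-5 belong to well known members that hold matches and the last, M17, holds none. Capitals mark ACGTG on either strand, CACGTG reads as ACGTG on both, and none of these windows holds CATGCA. The windows, 5′ to 3′ on the gene's strand from the RefSeq TAIR10.1 genome, are PER1 at chr1:17780179-17780428 (plus), LEA4-5 at chr5:2090431-2090680 (minus) and M17 at chr2:17206202-17206451 (plus).
PER1: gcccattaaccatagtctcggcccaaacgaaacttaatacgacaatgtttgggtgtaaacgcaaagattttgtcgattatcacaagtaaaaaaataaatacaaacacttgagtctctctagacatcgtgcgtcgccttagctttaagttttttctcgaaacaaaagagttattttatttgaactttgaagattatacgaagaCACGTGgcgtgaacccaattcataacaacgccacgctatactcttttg
LEA4-5: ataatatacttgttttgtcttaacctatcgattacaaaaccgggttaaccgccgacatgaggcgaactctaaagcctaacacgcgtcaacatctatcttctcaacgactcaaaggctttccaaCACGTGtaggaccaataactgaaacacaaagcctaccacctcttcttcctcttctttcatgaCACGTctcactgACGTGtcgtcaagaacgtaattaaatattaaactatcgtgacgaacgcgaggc
M17: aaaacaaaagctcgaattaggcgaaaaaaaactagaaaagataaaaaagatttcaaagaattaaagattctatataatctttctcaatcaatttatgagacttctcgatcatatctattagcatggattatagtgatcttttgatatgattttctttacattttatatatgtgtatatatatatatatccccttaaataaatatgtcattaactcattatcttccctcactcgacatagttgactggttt

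The PER1 window holds a single CACGTG, and that of LEA4-5 holds ACGTG at several places. M17, AT1G68250, ATPXG2 and AT1G03106 were the members without ACGTG.

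ECP63 (AT2G36640, chr2:15356830-15358619), a LEA protein of the embryo, had the largest rise. Its mock levels were 325 and 11.2 CPM in line 3, 9.13 and 35.1 CPM in line 8, 83.6 and 12.9 CPM in line 11, and 76.1 and 80.6 CPM in line 12. The other 24 libraries ran from 0 to 19.5 CPM with a median of 0.723, so the plates of lines 3, 8 and 11 were split, with 1 plate of each inside that range and the other above it, while both of line 12 were above. The log2 fold change was 5.70 ± 0.54 (SE, adjusted p = 5.10e-05, edgeR), and 3.70 ± 0.70 against GR-ENAP1 (adjusted p = 0.0488, edgeR). Without the libraries that stood apart it was 4.99 ± 0.52 (adjusted p = 4.60e-05, edgeR), and 3.56 ± 0.68 against GR-ENAP1 (adjusted p = 0.0712, edgeR).

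M17 (AT2G41260, chr2:17206452-17207698), a glycine-rich LEA gene, measured 1656 and 12.9 CPM in line 3, 92.1 and 139 CPM in line 8, 135 and 16.3 CPM in line 11, and 412 and 326 CPM in line 12. The other libraries ran from 1.64 to 62.3 CPM with a median of 12. Here both plates of lines 8 and 12 were above every other library, and the second plates of lines 3 and 11 were near the median of the others. The log2 fold change was 4.22 ± 0.48 (SE, adjusted p = 0.000133, edgeR), and 3.0 ± 0.56 without the libraries that stood apart (adjusted p = 0.000961, edgeR).

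AT5G22470 (chr5:7446962-7451049), which encodes poly(ADP-ribose) polymerase 3, a member of a family that modifies proteins at DNA breaks, followed the same plates. It measured 305 and 2.28 CPM in line 3, 4.76 and 14.7 CPM in line 8, 23.5 and 2.65 CPM in line 11, and 28.1 and 42.2 CPM in line 12, against 0 to 6.01 CPM elsewhere (median 0.481). The log2 fold change was 5.55 ± 0.64 (SE, adjusted p = 0.000155, edgeR). With both outlying libraries left out, it was 3.76 ± 0.59 (adjusted p = 0.000264, edgeR). Its low plates, again the second of lines 3 and 11 and the first of line 8, lay inside the range of the other libraries.

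The cupin AT2G28490 (chr2:12178597-12181012) measured 571 and 7.04 CPM in line 3, 20.4 and 38.3 CPM in line 8, 44.4 and 7.01 CPM in line 11, and 53.6 and 65.8 CPM in line 12, against 0.319 to 14.4 CPM elsewhere (median 1.48). PER1 (AT1G48130, chr1:17780429-17781727), a 1-cysteine peroxiredoxin of the seed, measured 236 and 1.71 CPM in line 3, 17.1 and 25.0 CPM in line 8, 23.6 and 4.73 CPM in line 11, and 42.8 and 54.3 CPM in line 12, against 0.453 to 18 CPM elsewhere (median 2.93). Again only line 12 had both plates above all other libraries for PER1, while the cupin cleared them on both plates of lines 8 and 12. The log2 fold changes were 4.90 ± 0.54 for AT2G28490 and 3.5 ± 0.44 for PER1 (SE, adjusted p = 0.000113 and 0.000275, edgeR), and 3.17 and 2.21 without the libraries that stood apart (adjusted p = 0.000158 and 0.00301, edgeR).

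The uncharacterized gene AT1G68250 (chr1:25579373-25580199) differed in that line 3 did not lead so far. It measured 146 and 6.28 CPM in line 3, 10.8 and 79.9 CPM in line 8, 87.5 and 16.5 CPM in line 11, and 102 and 92.1 CPM in line 12, against 0.172 to 10.2 CPM elsewhere (median 1.05). Hence 7 of its 8 libraries were above all 24 others. The log2 fold change was 4.68 ± 0.43 (SE, adjusted p = 3.94e-05, edgeR), and 3.75 ± 0.81 against GR-ENAP1 without the libraries that stood apart (adjusted p = 0.0795, edgeR).

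The other named rises, in order of size, were CBSX4 (AT1G80090, a protein with CBS domains, log2 fold change 5.08), HVA22B (AT5G62490, 4.94), the dehydrin LEA (AT2G21490, 4.72), AT1G27990 (uncharacterized, 4.61), the LEA genes AT2G42560 (4.52) and AT3G17520 (4.51) and the cupin AT4G36700 (4.38). All passed the test against each construct. In the fit without both outlying libraries, CBSX4 did not pass the filter on low counts, and the other 6 had log2 fold changes of 3.69 (HVA22B), 3.19 (LEA), 3.18 (AT1G27990), 3.23 (AT2G42560), 3.49 (AT3G17520) and 3.5 (AT4G36700). CBSX4 was the least abundant, reaching 27.5 CPM on the first plate of line 3 and no more than 0.927 CPM in any other construct. Reads of AT1G27990, LEA7 and RAB18 may come in part from overlapping genes, since the libraries keep no strand, and the same holds below for AGL67, OLEO1, OLEO2, ASN1, TT4, EXPA2, EXPA7, AIL6, E2F3, ARF19, NPH4, PIL5 and PGK. RAB18, the ABA-responsive dehydrin, had the smallest change of the 32 (1.56 ± 0.27, SE, adjusted p = 0.00312, edgeR, and 0.79 without the libraries that stood apart, adjusted p = 0.0399) and was the only one whose lines overlapped, with 40.7 to 705 CPM in the 8 libraries and 29.2 to 111 CPM in the others.

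**Figure D3:**
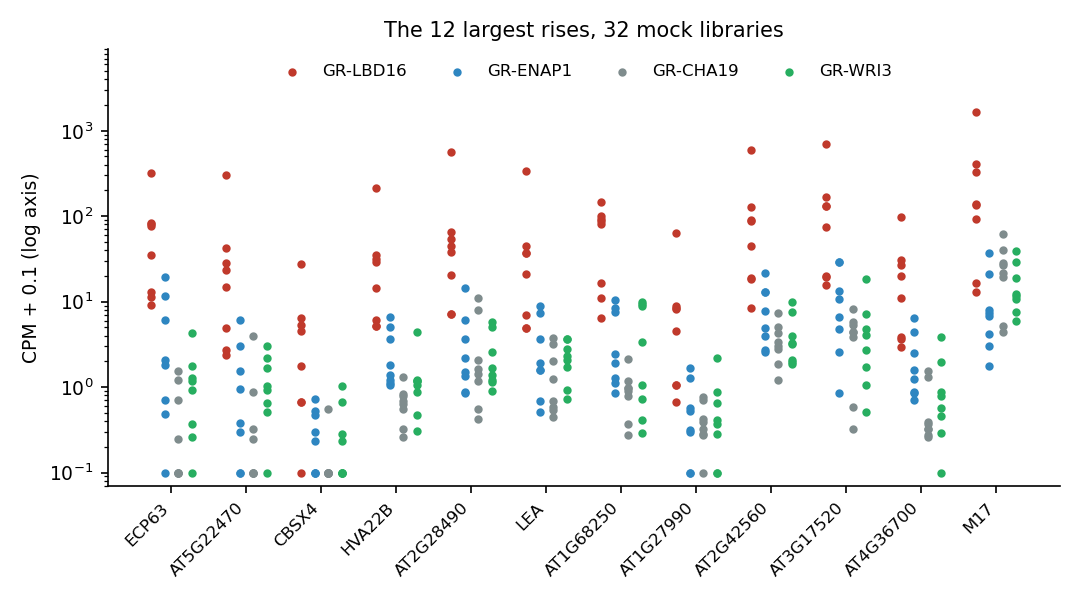
CPM + 0.1 (log axis) of the 12 genes with the largest rises in each of the 32 mock libraries, by construct. In every gene most GR-LBD16 libraries lie above the other constructs, and the highest point is in each case GR-LBD16, up to 1656 CPM for M17.

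Summed over the 32 genes, the split between plates of a line was plain. The sum was 10494 and 268 CPM on the plates of line 3, 427 and 1167 CPM in line 8, 1656 and 317 CPM in line 11, and 1989 and 2443 CPM in line 12. It was 87.7 to 452 CPM in GR-ENAP1 (median 162), 103 to 380 CPM in GR-CHA19 (median 231) and 135 to 317 CPM in GR-WRI3 (median 206). Thus 5 of the 8 GR-LBD16 libraries were above all 24 others and 3, the second plates of lines 3 and 11 and the first plate of line 8, were within their range. Counted gene by gene, 32 of the 32 were above all 24 other libraries on the first plates of lines 3 and 11 and on both plates of line 12, and 31 on the second plate of line 8. On the remaining plates the number was 1, 1 and 6. In mock, the LBD16 levels of the plates of a line did not follow this split. In line 3 LBD16 was at 56.4 CPM on the outlying plate and 59.1 CPM on the other, with sums of 10494 and 268 CPM. In line 11 the plate with more LBD16 (421 CPM) had the lower sum (317 CPM). Line 11, highest in LBD16, was below line 12 in the sum on both plates. On Dex plates the order differed, and in each line the plate with more LBD16 had the higher sum. What part the LBD16 level had in the sum was not tested.

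**Figure D4:**
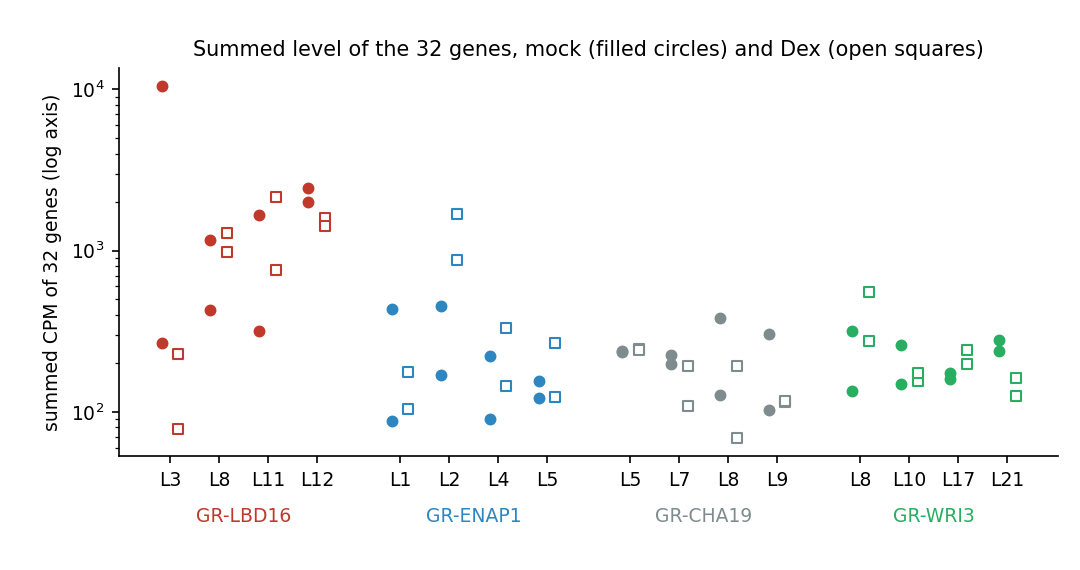
Summed CPM (log axis) of the 32 genes on each plate, by line and construct, with filled circles for mock and open squares for Dex. In mock, 5 GR-LBD16 plates lie between 1167 and 10494 CPM and the other 3 between 268 and 427 CPM, within the range of the other constructs (87.7 to 452 CPM).

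Without the libraries that stood apart, 28 of the 32 passed the filter on low counts and all 28 were still called against the mean of the other constructs, with a median log2 fold change of 3.03. Against GR-ENAP1 the 28 had log2 fold changes from 1.34 to 3.83 and unadjusted p-values under 0.05, but their adjusted p ran from 0.0703 to 0.0921 (edgeR) and none was called. Genes called against each construct then numbered 3: LBD16 (3.65 ± 0.34 against the mean), the AP2-domain regulator ABI4 (3.90 ± 0.38) and the drought-induced gene DI21 (1.34 ± 0.12, SE). All 3 had an adjusted p of 0.0353 against GR-ENAP1 (edgeR). Fewer genes were tested in that fit, 19105.

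The Dex libraries, which had no part in choosing the 32, come from the same lines and the same construct grouping. Of 19366 genes tested there, LBD16 alone was called (0.00516%, edgeR), with 878 genes at an unadjusted p under 0.05 and 45 calls by DESeq2. All 32 had a log2 fold change above 0, from 0.97 to 4.82 with a median of 2.31, where 48.0% of all genes were above 0 and the median was -0.01. None of the 32 passed, and the lowest adjusted p was 0.0728. The sum of the 32 on Dex plates was 230 and 77.7 CPM in line 3, 1283 and 986 CPM in line 8, 756 and 2149 CPM in line 11, and 1588 and 1427 CPM in line 12. The Dex libraries of other constructs ranged up to 247 CPM in GR-CHA19, 553 CPM in GR-WRI3 and 1677 CPM in GR-ENAP1. So the 6 plates of lines 8, 11 and 12 were above all GR-CHA19 and GR-WRI3 plates, line 3 was not, and only the second plate of line 11 was above the highest GR-ENAP1 plate.

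A separate list of seed storage and oil body genes shares PER1 with the 32. Of 12 tested, 6 rose and none fell in GR-LBD16, where 20.7% of all genes rose and 17.2% fell, with a median log2 fold change of 1.48 against 0.03 for all genes. The members that rose were OLEO2 (4.26 ± 0.60, SE), OLEO3 (1.15) and OLEO4 (1.81), which coat oil bodies, the globulin gene CRA1 (3.31 ± 0.80, SE), the albumin gene SESA5 (2.06) and PER1. Once both outlying libraries were dropped, 4 of 11 rose and none fell, OLEO2 being at 2.91 and CRA1 at 2.65, while OLEO4 (0.76, adjusted p = 0.127, edgeR) and SESA5 (2.14, adjusted p = 0.0502, edgeR) did not pass. Summed levels were 967 and 26.2 CPM in line 3, 298 and 217 CPM in line 8, 110 and 24.8 CPM in line 11, and 453 and 357 CPM in line 12, against 11.7 to 417 CPM elsewhere (median 24.0). The plates low in the sum of the 32 genes were low here in lines 3 and 11, and not in line 8. CRA1 alone reached 121 CPM in a GR-CHA19 library, and the oil body gene OLEO1, whose promoter and coding sequence are in the vector of all lines, was at 1.70 to 16.9 CPM with no call (adjusted p = 0.294, edgeR). What part the seed reserve state of a plate had in the changes of the 32 genes was not tested.

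Regulators of seed maturation were listed after values were seen. Of 14, 8 were tested, 4 rose and 1 fell, where 20.7% of all genes rose and 17.2% fell. The median was 0.88. Without the libraries that stood apart the counts were again 4 and 1, with a median of 0.41. ABI3 (AT3G24650), the B3 factor of the maturation programme, measured 274 and 12.7 CPM in line 3, 16.7 and 25.9 CPM in line 8, 25.2 and 11.9 CPM in line 11, and 22.4 and 45.9 CPM in line 12, against 1.95 to 35.9 CPM elsewhere (median 7.39). It rose by 2.55 ± 0.44 on the log2 scale (SE, adjusted p = 0.00303, edgeR), and by 1.42 ± 0.21 without the libraries that stood apart (adjusted p = 0.000117, edgeR). ABI5, the bZIP factor of the ABRE, rose by 1.57 ± 0.29 with lines that did not overlap the others, AGL67 by 4.61 ± 0.62 and ABI4 by 4.73 ± 0.90. Without the libraries that stood apart ABI5 rose by 0.70, AGL67 by 3.27 and ABI4 by 3.90. DOG1, which sets the depth of seed dormancy, fell by 1.36 on the log2 scale. None of these was called against GR-ENAP1 with all libraries in the fit, and ABI4 was called without those that stood apart (2.96, adjusted p = 0.0353, edgeR). LEC1, LEC2 and FUS3, which act in the embryo, did not pass the filter on low counts.

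Among 67 tested genes described as LEA proteins or dehydrins, a list that holds members of the 32, 30 rose, 10 fell (20.7% and 17.2% of all genes) and 12 were called against GR-ENAP1, all higher. With both outlying libraries left out, 28 of 66 rose and 17 fell, where 4905 of all 19105 genes rose and 4329 fell. With all libraries in the fit the median log2 fold change was 0.32. The falls there included the cold- and dehydration-responsive dehydrins COR47 (-0.85) and ERD10 (-0.84), which are expressed outside seeds. Without the libraries that stood apart the median was 0.21, with COR47 at -0.70 and ERD10 at -0.68. COR47 stood at 93.9 to 1340 CPM in GR-LBD16 and 412 to 2320 CPM elsewhere. KIN1 (1.5) and KIN2 (1.03), cold- and ABA-induced genes, rose with all libraries in the fit, and were at 1.69 and 1.18 without those that stood apart.

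Of 8 reserve mobilization genes, most of them enzymes that turn stored oil into sugar, 5 rose and none fell, where 20.7% of all genes rose and 17.2% fell. The median was 0.65, and none was called against GR-ENAP1, where the median was 0.43. In the fit without both outlying libraries, 5 rose and 1 fell, the thiolase PKT3 (-0.39), with a median of 0.40. Malate synthase (MLS), which with isocitrate lyase forms the glyoxylate cycle, measured 4532 and 240 CPM in line 3, 291 and 704 CPM in line 8, 497 and 156 CPM in line 11, and 674 and 1263 CPM in line 12, against 17.8 to 2162 CPM elsewhere (median 41.2). All 8 were above that median, but a GR-ENAP1 library was above 7 of them. MLS had a log2 fold change of 3.37 ± 0.59 (SE, adjusted p = 0.00330, edgeR) and 1.05 ± 0.80 against GR-ENAP1 (adjusted p = 0.906, edgeR). Without the libraries that stood apart its change against GR-ENAP1 was 1.82 ± 0.57 (SE, adjusted p = 0.104, edgeR). Isocitrate lyase (ICL, 1.62), the beta-oxidation protein MFP2 (1.18) and phosphoenolpyruvate carboxykinase (PCK1, 0.53) rose too, and without the libraries that stood apart MLS was at 2.89, ICL at 1.42, MFP2 at 0.55 and PCK1 at 0.32.

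Genes of carbon starvation in the dark went the other way. Of 8 tested, 7 fell and none rose, where 17.2% of all genes fell, with a median of -0.82, and none was called against GR-ENAP1 (median -0.29). Once both outlying libraries were dropped, all 8 fell. Asparagine synthetase ASN1, the classic dark-induced gene, measured 46.7 and 2452 CPM in line 3, 2099 and 1540 CPM in line 8, 1765 and 2403 CPM in line 11, and 1667 and 651 CPM in line 12, against 187 to 4329 CPM elsewhere (median 3464). Every GR-LBD16 library was below that median. ASN1 fell by 1.02 ± 0.25 on the log2 scale (SE, adjusted p = 0.0109, edgeR), and DIN2, a dark-induced glycosyl hydrolase, by 1.09. The summed list was 1150 CPM on the first plate of line 3 and 5550 to 13916 CPM on the other 7, against 17657 to 20918 CPM in GR-CHA19, 15817 to 19496 CPM in GR-WRI3 and 2333 to 17465 CPM in GR-ENAP1. So all 8 libraries were below those of GR-CHA19 and GR-WRI3.

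Ribosomal protein genes rose as a body, 202 of 262 tested against 6 that fell, where 20.7% of all genes were higher. Their median was 0.76 and against GR-ENAP1 0.21, with no call. Their summed level ran from 19105 to 74789 CPM, above the 13002 to 16941 CPM of all 16 GR-CHA19 and GR-WRI3 libraries, and the GR-ENAP1 libraries ran from 15689 to 63780 CPM. The first plate of line 3 (74789 CPM) was above all of these, and the other 7 were within the GR-ENAP1 range. The top of that range was the outlying GR-ENAP1 library. Without it the other constructs reached 25890 CPM at most, and the 7 GR-LBD16 plates ran from 19105 to 37766 CPM. Without the libraries that stood apart 210 rose and 8 fell, with a median of 0.55.

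Of 13 clock genes 7 fell and none rose, where 17.2% of all genes fell, with a median of -0.62. Against GR-ENAP1 none was called and the median was -0.32. Those that fell included the pseudo-response regulators PRR5 (-1.15) and PRR7 (-0.71), GI (-0.64) and the morning factor CCA1 (-0.55). Their sum was 417 to 961 CPM in GR-LBD16 and 589 to 1183 CPM elsewhere. The list stands here as a marker of sampling time, and no sampling time is given in the labels.

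Etiolated seedlings keep protochlorophyllide oxidoreductase ready for light. PORA rose by 1.99 ± 0.47 on the log2 scale (SE, adjusted p = 0.00978, edgeR), with 78.7 and 694 CPM in line 3, 865 and 786 CPM in line 8, 701 and 483 CPM in line 11, and 1006 and 1421 CPM in line 12, against 31.3 to 1056 CPM elsewhere (median 109). With PIL5 (PIF1, 0.58) and PIF3 (0.29), which hold back greening in the dark, 3 of 8 etiolation genes rose and none fell, where 20.7% of all genes rose and 17.2% fell. With both outlying libraries left out, 4 rose, HLS1 being the added one (0.46), and 2 fell, PIF4 (-0.56) and PIL6 (-0.49). Of 16 genes of light-exposed seedlings 3 rose, TT4 (2.96), RBCS1A (0.66) and RBCS2B (0.96), with a median of 0.21, a share near the 20.7% of all genes, and 5 rose without the libraries that stood apart. The sum of that list was 1001 CPM on the first plate of line 3 and 15341 to 23794 CPM on the other 7, against 4477 to 20401 CPM elsewhere.

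Root hair genes depended on the reference construct. Of 8 tested 5 rose against the mean, including RHD6 (2.73), which starts the hair cell programme, and the expansin EXPA7 (2.0), with a median of 2.03, where 20.7% of all genes rose. Against GR-ENAP1 the median was -1.12 with no call. In the fit without both outlying libraries, 7 of 7 rose against the mean, and against GR-ENAP1 RHD6 had a log2 fold change of 1.46 and EXPA7 of 0.41 (adjusted p = 0.0869 and 0.695, edgeR). The summed list was 7.99 to 94.5 CPM in GR-LBD16, 1.22 to 4.19 CPM in GR-CHA19, 1.27 to 20.3 CPM in GR-WRI3 and 3.0 to 372 CPM in GR-ENAP1, or up to 44.5 CPM there without the library that stood apart.

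**Figure D5:**
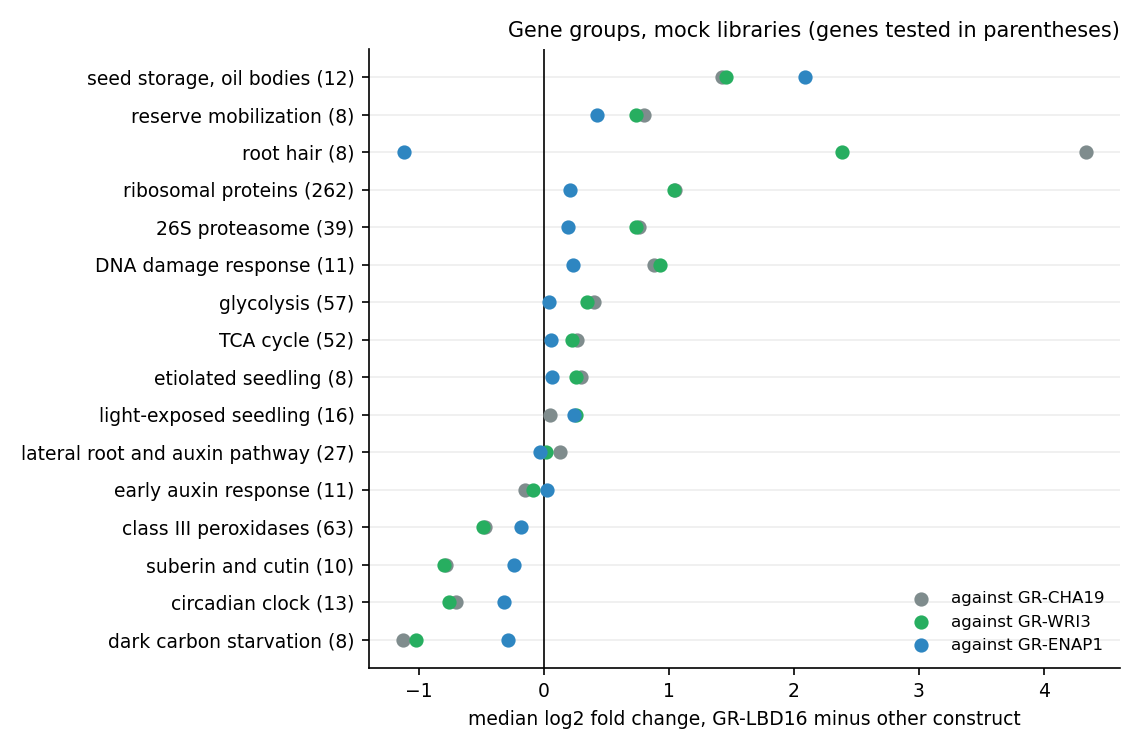
Median log2 fold change of each gene group (number tested in parentheses) in mock, GR-LBD16 minus each other construct. Points against GR-CHA19 and GR-WRI3 fall close together in most groups (ribosomal proteins, dark carbon starvation, clock), and those against GR-ENAP1 lie nearer 0 in these groups, above the others for storage and oil body genes (2.09) and on the other side of 0 for root hair genes (-1.12).

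Of 27 tested genes of lateral root formation and auxin response, the pathway in which LBD16 is known to act, 6 rose and 6 fell, with a median of 0.02. Over all genes 20.7% rose and 17.2% fell, so the shares in the pathway were near those of the background. The rises were the AINTEGUMENTA-like factors AIL5 (2.59), AIL6 (1.37) and AIL7 (2.42), PLT1 (2.11), WOX11 (1.95), which acts in adventitious roots, and E2F3 (E2Fa, 1.0), a cell cycle factor that LBD proteins induce. Once both outlying libraries were dropped, 9 of 25 rose and 7 fell, where 4905 of all 19105 genes rose and 4329 fell. AIL5 was then at 1.77, AIL6 at 0.67, AIL7 at 0.99 and WOX11 at 0.95. AIL5 measured 157 and 6.09 CPM in line 3, 8.18 and 18.9 CPM in line 8, 15.1 and 7.57 CPM in line 11, and 18.7 and 33.7 CPM in line 12, against 1.98 to 54.7 CPM elsewhere (median 3.3). Small falls were seen upstream, in ARF19 (-0.34), NPH4, which is ARF7 (-0.24), the auxin carrier AUX1 (-0.33) and the Aux/IAA repressors IAA14 (-0.61) and IAA28 (-0.71). None of the 12 was called against GR-ENAP1.

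Of 4 lateral root LBD genes tested LBD16 was the one called, while LBD18 had a log2 fold change of 0.03 ± 0.25 (adjusted p = 0.930, edgeR) and LBD29 of -0.53 ± 0.43 (SE, adjusted p = 0.328, edgeR). In the wider LOB-domain family 2 of 14 tested genes rose, LBD40 (2.78 ± 0.51, SE) and LBD13 (0.90), a smaller share than the 20.7% of all genes. Without the libraries that stood apart LBD40 rose by 1.07, LBD13 did not pass (0.57, adjusted p = 0.0778, edgeR) and LBD41 fell by 0.45. LBD40 was at 121 CPM on the first plate of line 3, between 1.71 and 11.8 CPM on the other 7, and at most 6.81 CPM elsewhere. Of 11 early auxin response genes none rose and 2 GH3 genes fell, WES1 (-0.89) and DFL1 (-0.46), a share near the 17.2% of all genes. With both outlying libraries left out, the same 2 fell, and IAA6 (0.71) and IAA19 (0.64) rose.

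Among the metabolic genes whose promoters the study screened none was called against GR-ENAP1, and the counts against the mean stand beside 20.7% of all genes higher and 17.2% lower. In glycolysis and gluconeogenesis 24 of 57 rose and 7 fell (median 0.25, and 0.04 against GR-ENAP1), including phosphoglycerate kinase (PGK, 1.17) and the plastid aldolase FBA1 (0.77). In the TCA cycle 14 of 52 rose and 3 fell (median 0.15), a share of rises not far from that of all genes in this fit. Without the libraries that stood apart 20 of 51 rose and 4 fell, where 4905 of all 19105 genes rose and 4329 fell. The rises with all libraries included mitochondrial malate dehydrogenase mMDH1 (1.29) and SDH2-3, the succinate dehydrogenase subunit of seeds. SDH2-3 measured 30.2 and 0.571 CPM in line 3, 0.571 and 1.89 CPM in line 8, 3.73 and 0.189 CPM in line 11, and 5.52 and 3.71 CPM in line 12, against 0 to 1.42 CPM elsewhere (median 0). Its log2 fold change was 5.11 ± 0.61 (SE, adjusted p = 0.000171, edgeR), and without the libraries that stood apart it did not pass the filter on low counts. The pentose phosphate pathway had 10 of 23 higher and 4 lower, branched-chain amino acid synthesis 7 of 15 higher and 2 lower, and cysteine synthesis 0 of 7 higher and 2 lower (edgeR). Without the libraries that stood apart, glycolysis and gluconeogenesis had 27 of 56 higher and 10 lower. The pentose phosphate pathway then had 12 of 23 higher and 6 lower. Branched-chain amino acid synthesis kept its counts, and cysteine synthesis had 2 of 7 higher and 5 lower (edgeR).

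In wall and surface genes the directions were mixed, beside 20.7% of all genes higher and 17.2% lower. Expansins, which loosen walls, had 9 of 22 higher and 2 lower, with EXPA10 at 3.18 and EXPA2 at 5.36, or 2.18 and 2.39 without the libraries that stood apart. EXPA2 was at 313 CPM on the first plate of line 3 and from 0.951 to 9.47 CPM on the others, within the 0 to 12.7 CPM of other constructs. Class III peroxidases, which act in the root wall, had 21 of 63 lower and 7 higher. Of 10 suberin and cutin genes 4 fell and none rose, including CYP86A1 (-1.43), a fatty acid hydroxylase of root suberin.

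LBD16 levels set the 4 lines apart by more than their plates, but no gene passed the edgeR test among lines with all 8 libraries, LBD16 included (adjusted p = 0.638, edgeR). An F-test among the 4 GR-LBD16 lines in mock called 0 of 18349 genes (edgeR), with 115 at an unadjusted p under 0.05 and 7 calls by the DESeq2 likelihood ratio test. The biological coefficient of variation was estimated at 0.404 in that fit, against 0.230 over the 16 line sums. Without line 3 replicate 2 the count rose to 9457, when line 3 was represented by the plate that stood apart alone, and without line 3 replicate 1 it was 10.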

How the data were processed

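Gene counts of the mock libraries were analysed, with Dex libraries as a second set. The authors trimmed reads (Trim Galore 0.6.0, FastQC 0.11.7), mapped them to TAIR10 with STAR 2.7.0f from nonstranded libraries and deposited the raw gene counts of each sequencing run, not normalized. The 2 runs of a library were summed, as the authors did, and for tests the 2 plates of a line, so that lines are the replicates. All 16 line sums were fitted in edgeR 4.0.16 (R 4.3.3) by robust quasi-likelihood with TMM factors, the filterByExpr filter and a term for each construct. The contrast was GR-LBD16 minus the mean of the other 3, with Benjamini-Hochberg adjustment over all genes and a threshold of 0.05. On data simulated for this contrast, 86.0% of 200 genes changed 2-fold were recovered and 7 unchanged genes were also called. The changed genes were drawn from the more abundant ones, and no other shift between constructs and no outlying library was simulated. These figures therefore do not describe how the real counts move with single libraries.

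Alternatives used DESeq2 1.42.0 and limma 3.58.1, other normalizations, no filter, libraries as units, a replicate block, all 64 libraries, a minimum fold, and libraries, lines or reference constructs left out. Named genes were the fused factors, the 12 largest rises (and falls, of which there were none) called against the mean and each construct with lines that do not overlap and at least 1 CPM on average, and called members of the gene lists. The members and lists were chosen with earlier results of these data known, and DNA damage, proteasome, photosystem, LEA and seed maturation regulator lists, the promoter motifs and genes outside these rules (ABI4, DI21, EM1, LBD40) after values were seen. Names, products and promoters came from RefSeq TAIR10.1, where 32548 of 32833 genes matched.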

Additional observations from a re-analysis of the deposited data

Results flagged for a closer look

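GR-LBD16 mock values were put to 18 checks for a plate or line far from the others. They covered summed CPM of gene groups, LBD16 CPM by plate and the LBD16 mean of each line. In 9 checks, all of gene groups, the first plate of line 3 stood out. Chance alone picks out about 1 in 20 checks, and the flagged groups share that plate and some genes. It was highest in the 32 genes called against each construct (10494 CPM, next plate 2443), in seed storage and oil body genes (967 CPM, next 453), in seed maturation regulators (669 CPM, next 170), in reserve mobilization (24948 CPM, next 11664), in ribosomal proteins (74789 CPM, next 37766) and in screened TCA cycle genes (11520 CPM, next 7076). It was lowest in circadian clock genes (417 CPM, next 711), in light-exposed seedling genes (1001 CPM, next 15341) and in suberin and cutin synthesis (241 CPM, next 474). Its LBD16 level, 56.4 CPM, was next to that of its partner plate.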

How the results depend on the processing

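LBD16 stayed called with a log2 fold change from 2.91 to 3.93 over 50 alternatives (adjusted p at most 0.0108). Counts of other genes moved. With a log2 fold change of at least 1, calls were 1670 against the mean (1337 higher, 333 lower), 3340 against GR-CHA19 and 2811 against GR-WRI3. Leaving reference constructs out gave 102 (94 higher, 8 lower) without GR-CHA19, 249 (174, 75) without GR-WRI3 and 11137 (6068, 5069) without GR-ENAP1, and against GR-ENAP1 0 and 3 for the first pair. Library size alone gave 2180 lower calls and 5694 higher.

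Against GR-ENAP1 the 35 calls became 90 with DESeq2, 16 with library size alone, 2 with no filter, 61 with 32 libraries as units, 71 with a replicate block, 3 with limma voom, 17 with all 64 libraries and 5 without both libraries that stood apart. Calls against each construct (33 higher, 0 lower) became 82 and 1 with DESeq2, 15 and 0 with library size alone, 1 and 0 with no filter, 55 and 3 with 32 libraries, 65 and 3 with the replicate block, 2 and 1 with limma voom, 15 and 0 with all 64 libraries, and 3 and 0 without both libraries. The plate numbers do not pair the libraries (correlations of deviations from -0.553 to 0.725 over 120 pairs of lines), and the replicate block gave 9480 calls against the mean. In Dex, DESeq2 called 45 genes. The F-test among lines had 7 calls by DESeq2.

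Leaving out libraries or lines in turn gave 2454 to 10694 calls against the mean (1341 to 5920 higher, 751 to 4774 lower), 6453 to 10411 against GR-CHA19, 4550 to 9755 against GR-WRI3, 1 to 3414 against GR-ENAP1, 1 to 1792 higher and 0 to 1402 lower against each construct, 0 to 9457 among lines and 1 to 21 in Dex. The lowest values came without GR-ENAP1 line 1 replicate 2, GR-LBD16 line 3 or line 12, and the highest (10694, 3414, 1792) without GR-ENAP1 line 1 replicate 1. Only 1 gene was also called against each construct without GR-ENAP1 line 2 replicate 2 or line 4 replicate 1. The CHA19 transcript turned from -0.42 to 0.0167 when the GR-CHA19 lines left the reference, which removes its own transgene. Of 8767 values for single genes, lists and further counts, 8303 were counted as unchanged, 370 lost the call, 21 gained it and 72 moved. A gene without a call was counted as unchanged while it stayed uncalled, whatever its sign. A list median was counted as unchanged within the SD of the 4 GR-LBD16 line values. The cause of the shifts was not tested. With 4 lines per construct and 2 plates each, differences near those of plates within a line are not detectable at this depth.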

Other observations

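Some gene groups that were listed after values were seen also differed. Over all genes 20.7% were higher and 17.2% lower. Proteasome subunits were higher in 32 of 39 tested and lower in none, with a median log2 fold change of 0.56, and none was called against GR-ENAP1 (median 0.19). PAD2 measured 52.1 to 138 CPM in the 8 GR-LBD16 libraries and 19.6 to 67.8 CPM in the others. Their sum was 3437 to 7349 CPM in GR-LBD16, 2542 to 2900 CPM over GR-CHA19 and GR-WRI3 and 2783 to 4754 CPM in GR-ENAP1.

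Of 11 DNA damage response genes 6 were higher and none lower (median 0.67). NAC044, a target of the damage regulator SOG1, measured 10.1 and 2.47 CPM in line 3, 4.57 and 4.42 CPM in line 8, 4.27 and 3.41 CPM in line 11, and 11.6 and 10.5 CPM in line 12, against 0 to 6.21 CPM elsewhere (median 0.414), a log2 fold change of 3.07 ± 0.27 (SE, adjusted p = 3.94e-05, edgeR). Against GR-ENAP1 it was 0.94 ± 0.32 (adjusted p = 0.906, edgeR). Its relative NAC103 had 3.04, PARP2 1.40 and BRCA1 1.01. Here line 12, not line 3, led for NAC044.

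Photosystem subunits had 11 of 34 higher and none lower (median 0.24), with PSB28 at 1.51. Without the libraries that stood apart 20 of 34 were higher and none lower (median 0.40), where 4905 of all 19105 genes were higher. Their sum was 651 CPM on the first plate of line 3 and 7468 to 10836 CPM on the other 7, against 2700 to 10070 CPM elsewhere. The lipid transfer protein gene AT5G01870 ran from 15.9 to 122 CPM in GR-LBD16 and from 0.205 to 81.5 CPM elsewhere (median 1.91), a log2 fold change of 3.42 ± 0.43 (SE, adjusted p = 0.000275, edgeR).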
